A study of Mus musculus with 24 samples.

Results

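Acyl-CoA thioesterases are enzymes that split fatty acyl-CoA into a free fatty acid and coenzyme A. The 9 genes described here (Acot1, Acot2, Acot3, Acot4, Acot7, Acot8, Acot9, Acot13 and Them5) were found by their symbols in the platform annotation and are 9 of the 19937 genes tested. The choice of these 9 of 18 measured thioesterases was made with earlier results of these data known. Each was read from 1 probe set. Expression was measured on arrays in mouse primary keratinocytes, the cells of the epidermis in culture, of the C57/BL6 strain. The genotypes were Ppar-beta null and wild type, where Ppar-beta is the nuclear receptor encoded by Ppard. Cells of both genotypes were infected for 48 hours with a retrovirus carrying activated Hras, an oncogene of the Ras pathway, or were mock transduced. In each case they then received 1 uM GW0742, a synthetic ligand specific for Ppar-beta, or DMSO for 24 hours. The 8 groups of 3 arrays were therefore null Hras GW0742, null Hras DMSO, wild-type Hras GW0742, wild-type Hras DMSO, null mock GW0742, null mock DMSO, wild-type mock GW0742 and wild-type mock DMSO. The labels give no age of the mice and no design of the deleted allele, and do not say whether cells of several animals were pooled. Nothing states that the 3 arrays of a group came from separate cultures. The p-values therefore cover the variation among these arrays, whether biological or technical.

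An acyl-CoA is the activated form in which a fatty acid enters oxidation, lipid synthesis or chain elongation, and thioesterases work against the synthetases that make it. Type I thioesterases (Acot1 to Acot6 in the mouse) share an alpha/beta hydrolase fold, whereas type II thioesterases (here Acot7, Acot8, Acot9, Acot13 and Them5) have a hotdog fold. Peroxisome proliferator-activated receptors, the family of Ppar-beta, bind DNA together with the retinoid X receptor and switch on genes of fatty acid use when a ligand is bound. Mouse Acot1 is a well known target of such ligands in liver and heart. The study's layout asks which responses to GW0742 need the receptor and how an oncogene in the same cells changes them.

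Acot2, Acot1, Acot4 and Acot3 lie side by side on chromosome 12, followed by Acot5 and Acot6, as 6 consecutive protein-coding genes in the RefSeq table of GRCm38.p6. The 250 bases before the start of each of the 4 member genes are printed because the neighbours differed in their response to the ligand. The sequences are RefSeq's on build GRCm38.p6, written 5′ to 3′. Capitals mark the only stretch within 2 mismatches of the peroxisome proliferator response element searched for.
Acot2 (chr12:83987611-83987860, plus strand): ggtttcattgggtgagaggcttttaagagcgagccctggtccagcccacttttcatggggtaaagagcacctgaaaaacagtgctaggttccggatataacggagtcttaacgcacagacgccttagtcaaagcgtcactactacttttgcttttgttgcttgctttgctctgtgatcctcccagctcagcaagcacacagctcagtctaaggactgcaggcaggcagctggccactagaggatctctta
Acot1 (chr12:84009252-84009501, plus strand): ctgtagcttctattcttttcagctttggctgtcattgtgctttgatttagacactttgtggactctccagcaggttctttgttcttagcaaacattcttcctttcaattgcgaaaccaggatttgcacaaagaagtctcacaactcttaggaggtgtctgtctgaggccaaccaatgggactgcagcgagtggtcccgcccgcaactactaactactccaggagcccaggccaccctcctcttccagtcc
Acot4 (chr12:84038129-84038378, plus strand): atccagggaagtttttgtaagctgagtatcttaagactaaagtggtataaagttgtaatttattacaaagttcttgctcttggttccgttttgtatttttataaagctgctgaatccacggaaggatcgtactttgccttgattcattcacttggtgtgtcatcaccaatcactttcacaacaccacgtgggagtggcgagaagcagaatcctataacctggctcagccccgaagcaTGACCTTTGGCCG
Acot3 (chr12:84051894-84052143, plus strand): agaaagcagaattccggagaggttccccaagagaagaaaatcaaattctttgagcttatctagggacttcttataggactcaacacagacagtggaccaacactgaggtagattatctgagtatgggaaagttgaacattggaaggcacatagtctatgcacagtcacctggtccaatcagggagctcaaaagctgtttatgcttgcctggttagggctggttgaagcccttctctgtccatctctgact
The element was AGGTCA, then any base (N), then AGGTCA again, read on both strands. AGGTCA was also searched alone, and every exact copy of the element holds it. The Acot4 stretch covers bases -13 to -1 before the start and reads CGGCCAAAGGTCA on the minus strand, with 2 mismatches. Over 32851 promoter windows of the same length, 3.24% held a stretch with at most 2 mismatches, 0.484% one with at most 1 mismatch and 0.0335% an exact one, while 14.0% held AGGTCA. Windows were found for 8 of the 9 members, all but Acot13. Outside Acot4, none of them held AGGTCA or came within 2 mismatches. A match describes these letters only, and no match covers only this window.

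The array medians lay between 7.46 and 7.53 on the log2 scale, and with 3 arrays a group precision is limited. Changes are log2 differences ± SE from a limma model of all 24 arrays, with Benjamini-Hochberg adjusted p-values over all genes and a threshold of 0.05 for a gene called changed. The 3 null Hras GW0742 arrays spread more than the others, with a gene's SD at a median of 0.122, while it was 0.0647 to 0.0798 elsewhere. Ppard, the targeted gene, fell by 0.28 to 0.57 on the log2 scale in null relative to wild-type cells, passing in all 4 conditions, and remained well measured in null cells (10.60 to 11.47). The part of the transcript that its probe set reads relative to the deletion is not given. The 9 keratinocyte markers averaged 12.9 to 13.1 in the Hras arrays and 13.2 to 13.3 in the mock arrays.

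GW0742 raised 4 of the 9 thioesterases in wild-type mock cells, Acot1, Acot2, Acot4 and Acot7, and lowered none. In wild-type Hras cells it raised Acot1, Acot2 and Acot4 and lowered none. By limma no member passed in null cells, where 3 members in Hras cells (Acot2, Acot7, Acot13) and 1 in mock cells (Acot9) had an unadjusted p under 0.05, all with lower values. Among all genes tested, 1.25% were called higher and 1.61% lower in wild-type mock cells, and 4.46% higher and 1.65% lower in wild-type Hras cells. In null mock cells 0.0% of all genes were called, with 1097 genes at an unadjusted p under 0.05 and a lowest adjusted p of 0.0616. In null Hras cells 3.51% were called higher and 1.51% lower, with 3388 of the 19937 genes at an unadjusted p under 0.05. The members' median log2 change was 0.17 in wild-type Hras cells and 0.16 in wild-type mock cells, against -0.01 and 0.00 over all genes. The 9 members were chosen with earlier results of these data known, so these counts and medians are descriptions only. Among the 9 other thioesterases measured, 2 rose in wild-type Hras cells (median -0.01) and 0 passed in wild-type mock cells (median 0.05).

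**Figure D1:**
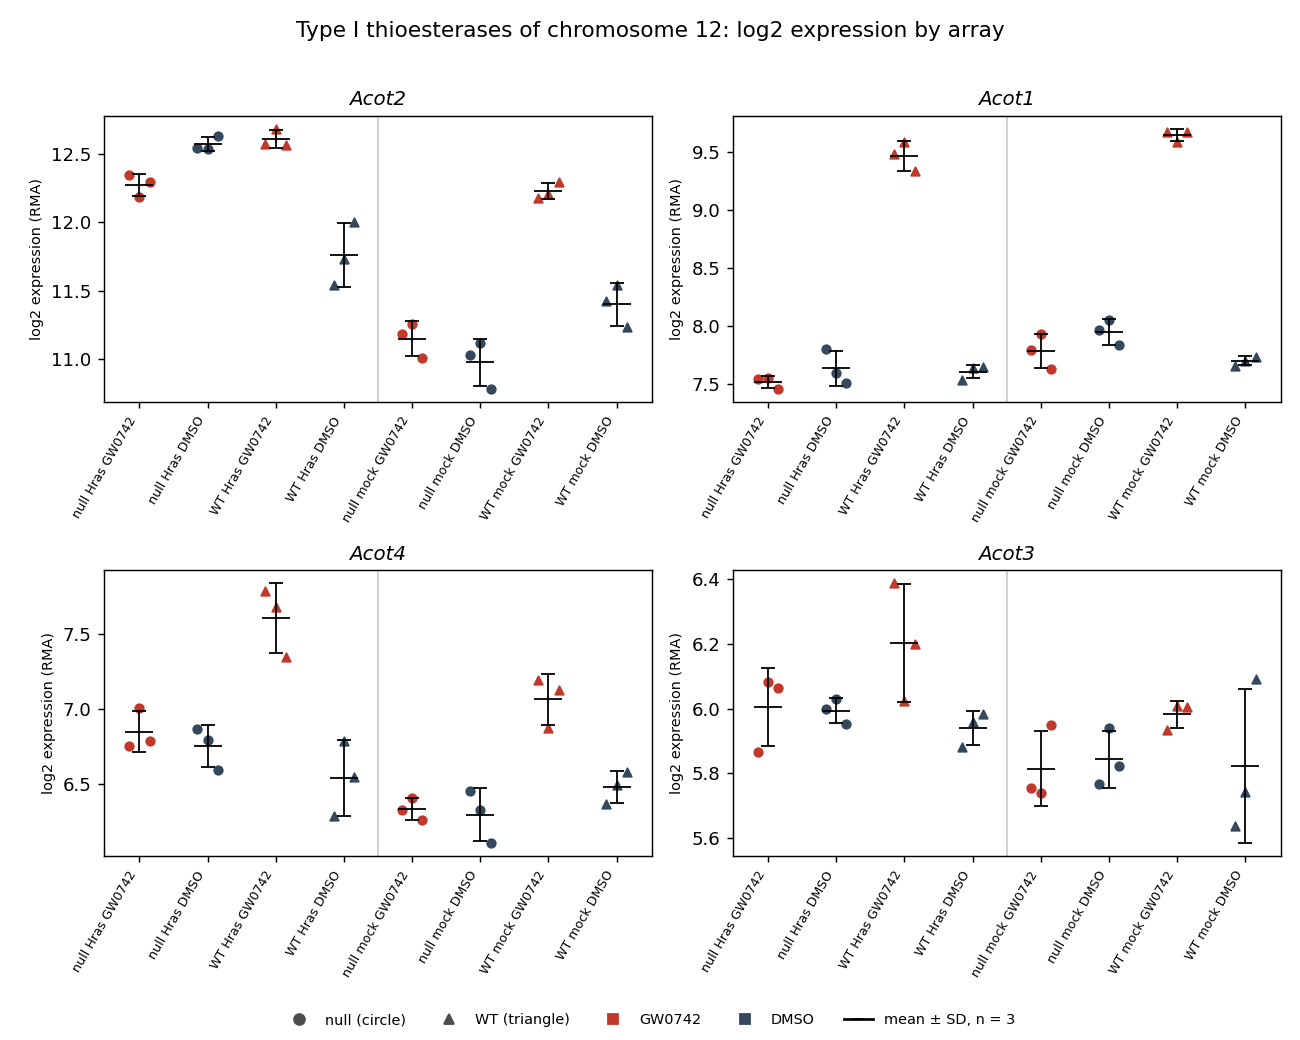
Log2 expression (RMA, vertical axes) of Acot2, Acot1, Acot4 and Acot3 on each of the 24 arrays, by group; points are arrays and black bars the mean ± SD of 3. The 6 wild-type GW0742 arrays of Acot1 lie between 9.33 and 9.68, above all 18 others, whereas Acot3 stays between 5.64 and 6.39.

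Acot1 encodes the cytosolic thioesterase of long-chain acyl-CoA. Its log2 values were 9.48, 9.59 and 9.33 in wild-type Hras cells with GW0742, against 7.53, 7.64 and 7.64 with DMSO. In wild-type mock cells they were 9.68, 9.59 and 9.68 with GW0742, against 7.66, 7.70 and 7.73 with DMSO. No array of either ligand group came near a DMSO array, and the fitted changes were 3.64-fold with Hras (adjusted p = 1.45e-12, limma) and 3.87-fold in mock cells (adjusted p = 8.19e-13, limma). In null Hras cells the values were 7.54, 7.55 and 7.46 with GW0742, against 7.80, 7.59 and 7.51 with DMSO. In null mock cells they were 7.79, 7.93 and 7.63 with GW0742, against 7.96, 8.05 and 7.83 with DMSO. The null groups overlapped in both cases, and their log2 changes were -0.12 ± 0.08 with Hras (95% interval -0.29 to 0.05) and -0.17 ± 0.08 in mock cells (-0.34 to 0.01). The difference of the GW0742 effect between null and wild-type cells was -1.98 ± 0.12 with Hras (adjusted p = 5.24e-10, limma). The Hras infection did not detectably alter the response in wild-type cells: the Hras minus mock difference was -0.09 ± 0.12, with a 95% interval from -0.33 to 0.15 (adjusted p = 0.852, limma).

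Acot2 encodes the closely related enzyme of the mitochondrial matrix. With GW0742 its log2 values were 12.57, 12.68 and 12.56 in wild-type Hras cells, against 11.54, 11.73 and 12.002 with DMSO. In wild-type mock cells they were 12.18, 12.21 and 12.30 with GW0742, against 11.42, 11.54 and 11.23 with DMSO. The groups did not overlap in either case, and the rise was 1.80-fold with Hras (adjusted p = 7.51e-06, limma) and 1.78-fold in mock cells (adjusted p = 2.45e-05, limma). In null Hras cells the values were 12.34, 12.18 and 12.30 with GW0742, against 12.54, 12.54 and 12.63 with DMSO. All 3 ligand arrays of that pair were below the DMSO arrays, but the change of -0.30 ± 0.10 did not pass (adjusted p = 0.105, limma). In null mock cells the arrays overlapped and the change was 0.17 ± 0.10 (adjusted p = 0.911, limma). The null minus wild-type difference of the effect was -1.14 ± 0.14 with Hras (adjusted p = 5.02e-05, limma) and -0.66 ± 0.14 in mock cells (adjusted p = 0.0277, limma). The mock difference no longer passed in 8 of the 12 fits that each left out 1 of the arrays concerned (log2 difference -0.57 to -0.75, highest adjusted p = 0.103, limma).

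Acot4, whose enzyme acts in the peroxisome on succinyl-CoA and other dicarboxylyl-CoAs, rose in wild-type Hras cells and in wild-type mock cells. In wild-type Hras cells its log2 values were 7.78, 7.68 and 7.34 with GW0742, against 6.29, 6.79 and 6.55 with DMSO. In wild-type mock cells they were 7.19, 6.87 and 7.13 with GW0742, against 6.37, 6.50 and 6.58 with DMSO. Neither pair of groups overlapped. The rise was 2.08-fold with Hras (adjusted p = 6.76e-06, limma) and 1.49-fold in mock cells (adjusted p = 0.0116, limma), and the Hras minus mock difference of 0.48 ± 0.18 did not pass (95% interval 0.11 to 0.85, adjusted p = 0.220, limma). The mock rise was lost without replicate 1 of wild-type mock DMSO or without replicate 1 or 3 of wild-type mock GW0742 (log2 change 0.52, 0.52 and 0.55, highest adjusted p = 0.0876, limma). Null cells gave changes of 0.10 ± 0.13 with Hras and 0.04 ± 0.13 in mock cells, and their arrays overlapped. The null minus wild-type difference was -0.96 ± 0.18 with Hras (adjusted p = 0.00480, limma), which became 0.0576 in a model of only the 12 arrays concerned, and -0.54 ± 0.18 in mock cells (95% interval -0.92 to -0.17, adjusted p = 0.243, limma).

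Acot3, which encodes a peroxisomal long-chain enzyme, passed in none of the 16 comparisons and was among the 40% of genes with the lowest mean, as was Acot4. Its values were 6.39, 6.02 and 6.20 in wild-type Hras cells with GW0742, against 5.88, 5.96 and 5.98 with DMSO. These arrays did not overlap, but the change of 0.26 ± 0.10 did not pass (adjusted p = 0.148, limma). The genes of this cluster arose by duplication and resemble each other in sequence. A probe set of one may bind transcripts of another, and how far this happened was not tested because probe sequences were not used here.

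The further cluster genes, Acot5 and Acot6, encode peroxisomal enzymes and are among the other thioesterases listed below. In wild-type Hras cells Acot5 had 7.01, 7.14 and 7.17 with GW0742, against 6.44, 6.28 and 6.28 with DMSO, and rose by 0.77 ± 0.10 on the log2 scale (adjusted p = 2.78e-05, limma). In wild-type mock cells its GW0742 and DMSO arrays overlapped and the change was -0.04 ± 0.10. The Hras minus mock difference of 0.81 passed (adjusted p = 0.00258, limma). The null minus wild-type difference of the GW0742 effect in Hras cells, -0.84, passed too (adjusted p = 0.00221, limma). In null Hras cells Acot5 had 7.23, 7.30 and 7.06 with GW0742, against 7.05, 7.35 and 7.41 with DMSO. With DMSO it was already higher in null than in wild-type Hras cells, by 0.94 ± 0.10 (adjusted p = 1.12e-06, limma). Acot6 rose by 0.33 ± 0.06 in wild-type Hras cells (adjusted p = 0.000480, limma).

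Among the type II members, Acot7 moved with GW0742 in wild-type mock cells. Acot7 encodes a cytosolic thioesterase abundant in brain that prefers long-chain substrates such as arachidonoyl-CoA. Its values there were 10.41, 10.29 and 10.28 with GW0742, against 9.95, 9.91 and 9.97 with DMSO, with no overlap and a rise of 1.31-fold (adjusted p = 0.00926, limma). The call was lost without replicate 2 of the DMSO group or replicate 1 of the GW0742 group (log2 change 0.37 and 0.34, highest adjusted p = 0.0725, limma). In wild-type Hras cells the change was 0.17 ± 0.08 and did not pass (adjusted p = 0.310, limma). The null minus wild-type difference in mock cells was -0.47 ± 0.12 and narrowly missed the threshold (adjusted p = 0.0595, limma).

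Them5, a mitochondrial enzyme linked to the remodelling of cardiolipin, had lower values with GW0742 in wild-type mock cells. They were 11.65, 11.56 and 11.64, against 12.06, 12.08 and 11.95 with DMSO, without overlap. The change of -0.41 ± 0.11 missed the threshold (adjusted p = 0.0553, limma), and 4 of 13 alternative fits placed it below. Acot8 (a peroxisomal enzyme of broad specificity), Acot9 (mitochondrial) and Acot13 (a small enzyme associated with mitochondria) did not pass in any GW0742 comparison. Their changes lay between -0.16 and 0.15 on the log2 scale. Of the 95% intervals behind them, the one reaching farthest from 0, that of Acot13 in null Hras cells, ran from -0.32 to -0.01.

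**Figure D2:**
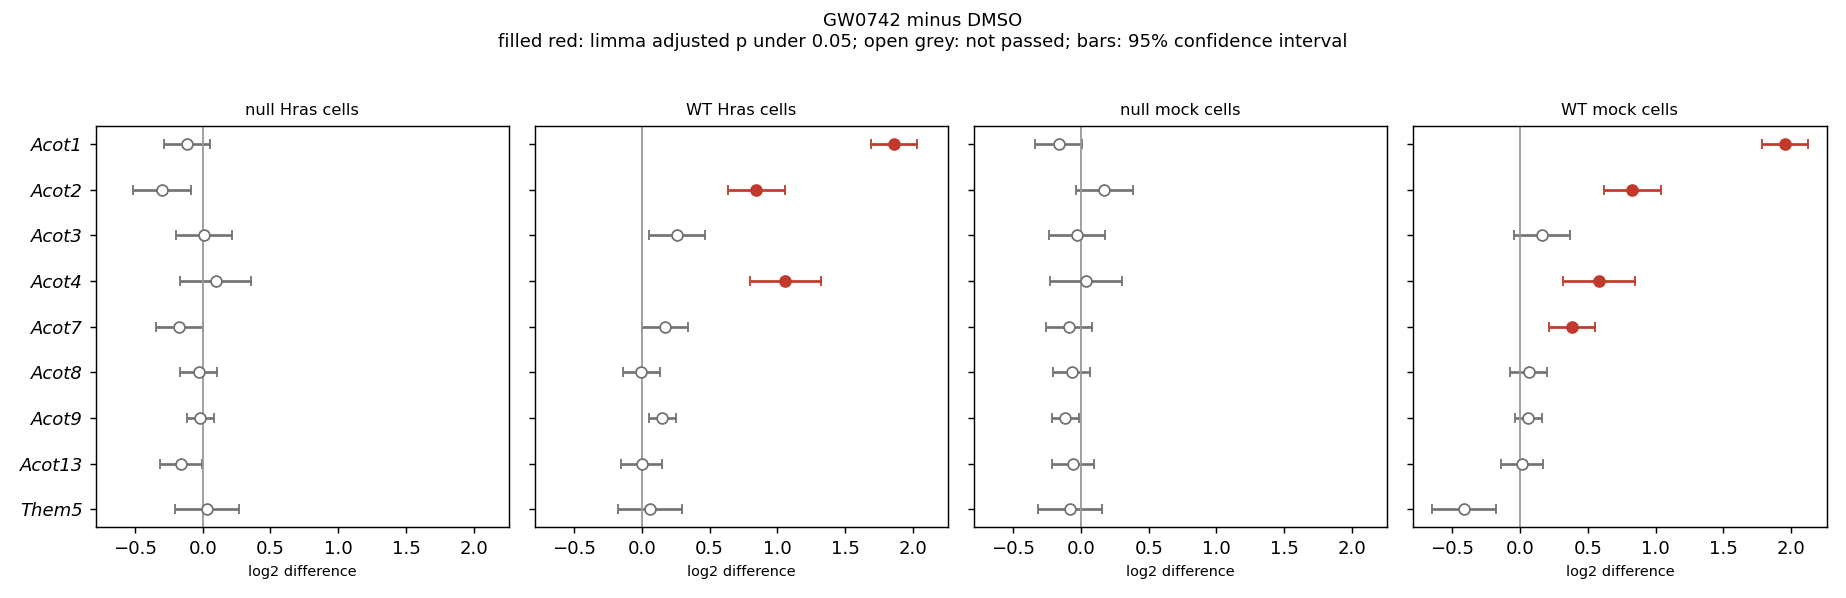
GW0742 minus DMSO, as log2 difference (horizontal axes) with 95% confidence interval, for the 9 members in null Hras, wild-type Hras, null mock and wild-type mock cells. Filled red points passed and open grey points did not: 3 passed in wild-type Hras cells, 4 in wild-type mock cells and 0 in either null panel.

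Tested directly, the null minus wild-type difference of the GW0742 effect gave 0 higher and 3 lower members in Hras cells (Acot1, Acot2, Acot4), where 0.517% of all genes were called higher and 1.21% lower. In mock cells it gave 0 higher and 2 lower members (Acot1, Acot2), where 0.286% were called higher and 0.562% lower. For the Hras minus mock difference in wild-type cells 0 members passed by limma, with 2.05% of all genes called higher and 0.421% lower. At an unadjusted p under 0.05, 2 members had a Hras minus mock difference, Acot4 (0.48) and Them5 (0.47). Of all 19937 genes, 2490 had one at that threshold.

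No group is named as carrying a retrovirus without Hras, so effects of infection and of Hras cannot be told apart. With that limit, Hras changed members of both thioesterase types. In DMSO it changed 3 of 9 members in wild-type cells (Acot2 and Acot7 higher, Them5 lower) and 7 of 9 in null cells (Acot2, Acot4, Acot7 and Acot9 higher, Acot1, Acot8 and Them5 lower). Hras also moved a large part of all genes. In null DMSO cells 20.2% were called higher and 20.5% lower, and in wild-type DMSO cells 18.4% higher and 19.0% lower. In wild-type DMSO cells 7454 of 19937 genes were called, so 3 of 9 members was no larger a share. With each array centred on its median the split leaned to higher genes, with 4988 higher and 3459 lower in null DMSO cells (4029 and 4090 without centring) and 4625 higher and 3142 lower in wild-type DMSO cells (3671 and 3783 without centring). With GW0742 6 members passed in each genotype, 4 higher and 2 lower. Among all genes 21.0% were then called higher and 20.7% lower in null cells, and 17.7% higher and 17.5% lower in wild-type cells. RNA of whole cultures was measured, so fewer cells of a type and less RNA per cell cannot be told apart.

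Tested directly in DMSO cells, the null minus wild-type difference of the Hras effect passed above 0 for 2 members (Acot2, Acot9) and below 0 for 1 (Acot7), where 8.35% of all genes were called higher and 8.41% lower. Them5 fell most among the members. Its values in null DMSO cells were 8.43, 8.53 and 8.09 with Hras, against 12.32, 12.37 and 12.33 in mock cells. In wild-type DMSO cells they were 7.48, 7.73 and 7.94 with Hras, against 12.06, 12.08 and 11.95 in mock cells. The groups were separated by more than 3 log2 units on every array, and the fall was 15.9-fold in null cells (adjusted p = 5.49e-17, limma) and 19.9-fold in wild-type cells (adjusted p = 2.84e-17, limma). With GW0742 it was 14.7-fold in null cells and 14.3-fold in wild-type cells. The Hras effect in DMSO differed between null and wild-type cells by 0.33 ± 0.16, which did not pass (95% interval -0.01 to 0.66, adjusted p = 0.199, limma).

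Acot7 went the opposite way. It had 11.73, 11.43 and 11.46 in null DMSO cells with Hras, against 10.41, 10.32 and 10.54 in mock cells. Wild-type DMSO cells had 11.80, 11.87 and 11.63 with Hras, against 9.95, 9.91 and 9.97 in mock cells. All Hras arrays lay above all mock arrays, and the rise was 2.17-fold in null cells (adjusted p = 2.28e-10, limma) and 3.54-fold in wild-type cells (adjusted p = 9.43e-14, limma). The difference between these effects was -0.70 ± 0.12, smaller in null cells (adjusted p = 0.000177, limma).

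Acot2 and Acot9 showed the reverse order of the genotypes. Acot2 had 12.54, 12.54 and 12.63 in null DMSO cells with Hras, against 11.03, 11.12 and 10.78 in mock cells, a rise of 3.02-fold (adjusted p = 2.83e-11, limma). In wild-type DMSO cells it had 11.54, 11.73 and 12.002 with Hras, against 11.42, 11.54 and 11.23 in mock cells. The lowest Hras array lay just below the highest mock array, and the rise was 1.28-fold (adjusted p = 0.00717, limma). That wild-type rise did not pass without replicate 3 of either group or in a model of only these arrays (log2 change 0.24 to 0.36, highest adjusted p = 0.0724, limma). The difference between the effects was 1.23 ± 0.14, larger in null cells (adjusted p = 4.17e-06, limma). Acot9 had 11.18, 11.27 and 11.27 in null DMSO cells with Hras, against 10.75, 10.62 and 10.74 in mock cells, and rose by 0.54 ± 0.05 on the log2 scale (adjusted p = 3.94e-09, limma). In wild-type DMSO cells it had 10.80, 10.75 and 10.78 with Hras, against 10.68, 10.59 and 10.70 in mock cells. These groups did not overlap, yet the change of 0.12 ± 0.05 narrowly missed the threshold (adjusted p = 0.0513, limma). The difference for Acot9 was 0.42 ± 0.07 (adjusted p = 0.000126, limma).

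Acot1 and Acot4, which follow Acot2 in the cluster, gave smaller values. In null DMSO cells Acot1 fell by 0.31 ± 0.08 on the log2 scale with Hras (adjusted p = 0.00317, limma), with 7.80, 7.59 and 7.51 against 7.96, 8.05 and 7.83 in mock cells. Acot4 rose there by 0.46 ± 0.13 (adjusted p = 0.00567, limma), with 6.87, 6.80 and 6.60 against 6.46, 6.33 and 6.11 in mock cells. In wild-type DMSO cells neither passed, with changes of -0.09 ± 0.08 for Acot1 and 0.06 ± 0.13 for Acot4. Neither effect was shown to differ between genotypes: the null minus wild-type difference was -0.22 ± 0.12 for Acot1 (adjusted p = 0.228, limma) and 0.40 ± 0.18 for Acot4 (adjusted p = 0.155, limma).

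With Hras 1 of the 9 keratinocyte markers rose and 6 fell in null DMSO cells (median log2 change -0.14, lowest -1.05), and 0 rose and 6 fell in wild-type DMSO cells (median -0.18, lowest -1.02), beside the changes of Them5 and Acot7. Their part in these changes was not tested.

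Acot8 values were all within 8.71 to 9.05 over the 24 arrays. With Hras it fell by 0.17 ± 0.07 on the log2 scale in null DMSO cells (adjusted p = 0.0487, limma), a call kept in 5 of 13 alternative fits, and by 0.22 ± 0.07 in wild-type GW0742 cells (adjusted p = 0.00999, limma), a call lost without replicate 1 of the Hras group. Acot13 passed in none of the 16 comparisons. Its group means spanned 0.16 on the log2 scale, between arrays that lay from 9.52 to 9.93.

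**Figure D3:**
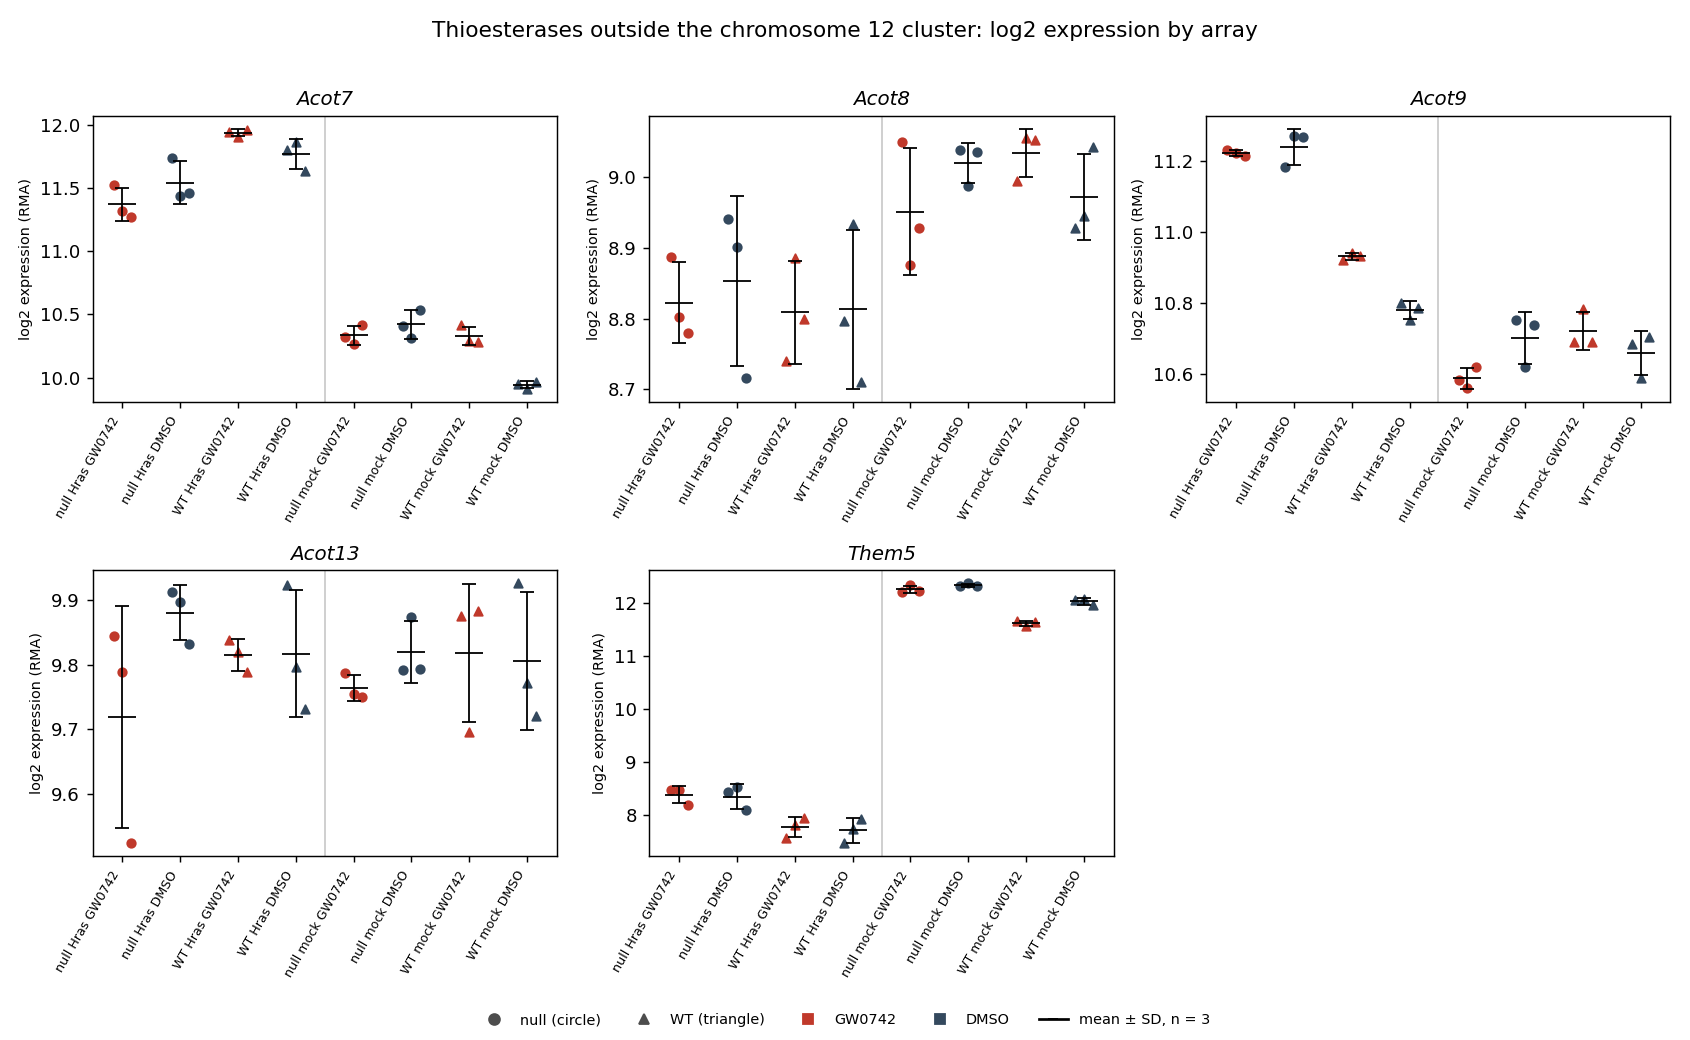
Log2 expression (RMA, vertical axes) of Acot7, Acot8, Acot9, Acot13 and Them5 on each of the 24 arrays, by group; points are arrays and black bars the mean ± SD of 3. Them5 lies between 7.48 and 8.53 in the 12 Hras arrays and between 11.56 and 12.37 in the 12 mock arrays, while Acot7 lies higher in all Hras arrays.

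**Figure D4:**
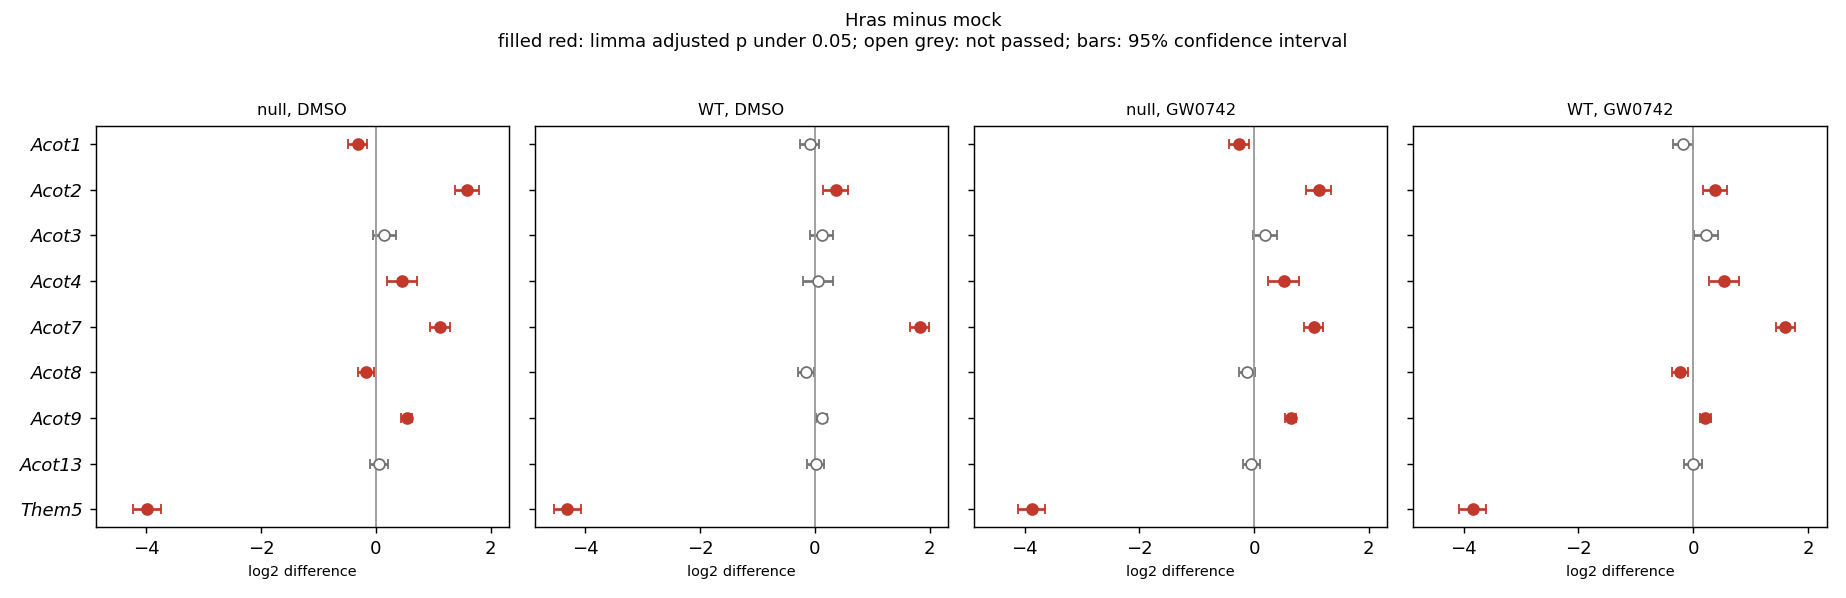
Hras minus mock, as log2 difference (horizontal axes) with 95% confidence interval, for the 9 members in null DMSO, wild-type DMSO, null GW0742 and wild-type GW0742 cells. Acot7 and Them5 passed in all 4 panels in opposite directions, and the Acot2 point lies farther right in null DMSO cells (1.59) than in wild-type DMSO cells (0.36).

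Compared in DMSO, null and wild-type cells differed in 2 members in mock cells and in 3 members in Hras cells. In mock DMSO cells Acot7 was higher in null cells by 0.48 ± 0.08 on the log2 scale (adjusted p = 0.000381, limma) and Acot2 lower by 0.42 ± 0.10 (adjusted p = 0.00844, limma), where 4.89% of all genes were called higher and 5.53% lower. The Acot2 call was lost without wild-type replicate 2 or null replicate 3 (highest adjusted p = 0.0720, limma). Acot1 was at 0.25 ± 0.08 and did not pass (adjusted p = 0.0532, limma), but passed with the replicate number as a block (adjusted p = 0.0374, limma). In Hras DMSO cells 3 members were higher in null cells and none lower, against 10.1% of all genes higher and 9.32% lower. They were Acot2 by 0.81 ± 0.10 (adjusted p = 6.27e-06, limma), Them5 by 0.64 ± 0.11 (adjusted p = 0.000338, limma) and Acot9 by 0.46 ± 0.05 (adjusted p = 4.52e-07, limma). Acot2 thus stood on opposite sides of wild type in Hras and in mock cells. It had 12.54, 12.54 and 12.63 in null Hras DMSO cells, against 11.54, 11.73 and 12.002 in wild type. In null mock DMSO cells it had 11.03, 11.12 and 10.78, against 11.42, 11.54 and 11.23 in wild type. Fibroblast markers also changed side: 4 of 7 were higher and 0 lower in null Hras DMSO cells (median 0.28), and 0 were higher and 6 lower in null mock DMSO cells (median -0.61). Of the 6 melanocyte markers 0 passed in Hras DMSO cells, and 0 were higher and 4 lower in null mock DMSO cells (median -0.31). The part of these cells in the genotype differences was not tested.

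With GW0742 more members differed between genotypes. In Hras cells Them5 and Acot9 were higher in null cells and Acot1, Acot2, Acot4 and Acot7 lower, where 9.91% of all genes were called higher and 11.2% lower. In mock cells Them5 was higher and Acot1, Acot2, Acot4 and Acot9 lower, where 11.1% were called higher and 10.9% lower. Acot1 was 3.87-fold lower in null Hras cells with the ligand (adjusted p = 3.13e-13, limma) and 3.64-fold lower in null mock cells with it (adjusted p = 1.45e-12, limma). The corresponding values for Acot4 were 1.68-fold (adjusted p = 0.000156, limma) and 1.66-fold (adjusted p = 0.000213, limma). Acot2 was 1.26-fold lower in null Hras cells (adjusted p = 0.0237, limma), a call lost without replicate 2 of either group, and 2.11-fold lower in null mock cells (adjusted p = 1.26e-07, limma). Acot9 in mock cells was lower by 0.13 ± 0.05 on the log2 scale (adjusted p = 0.0459, limma), a call kept in 5 of 13 alternative fits. These comparisons share arrays with the ligand and Hras comparisons above.

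**Figure D5:**
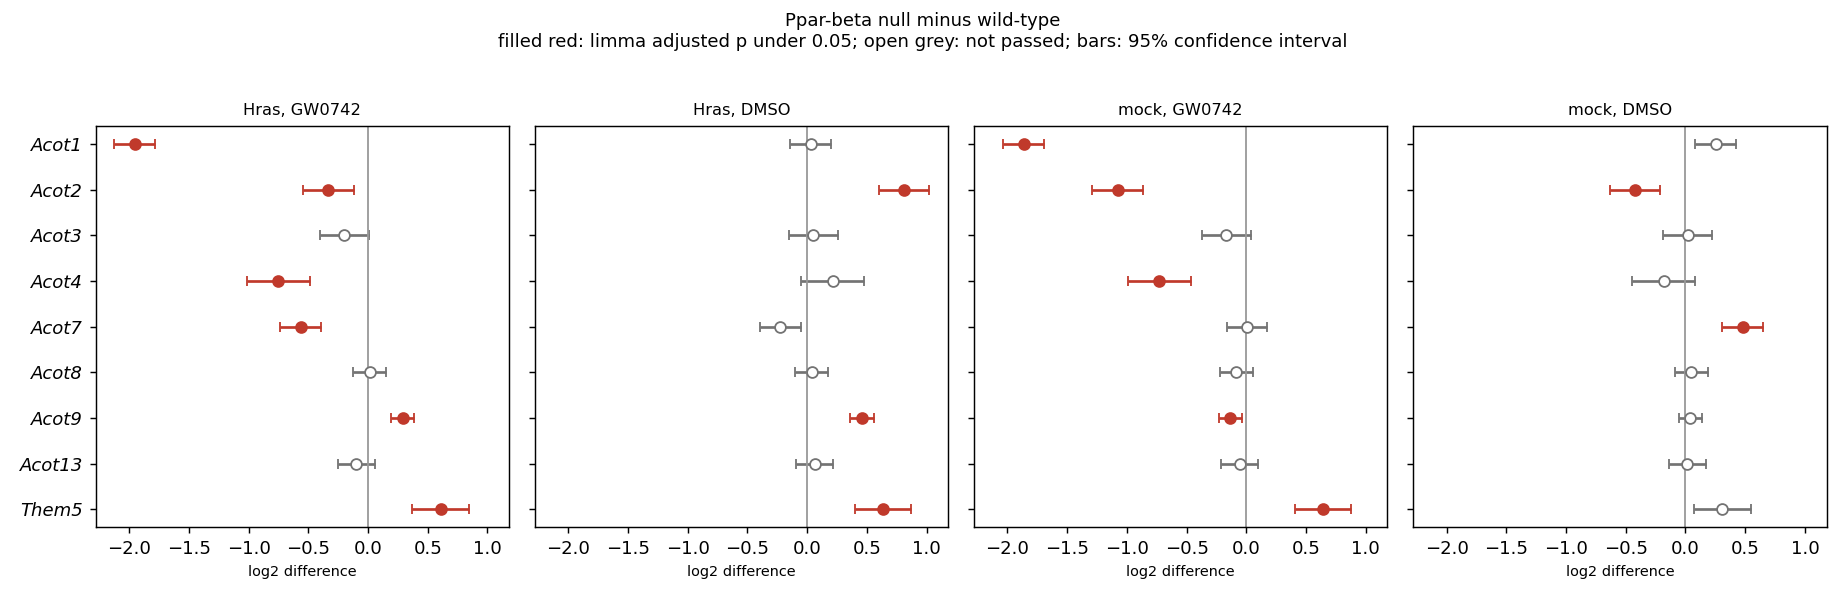
Null minus wild type, as log2 difference (horizontal axes) with 95% confidence interval, for the 9 members in Hras GW0742, Hras DMSO, mock GW0742 and mock DMSO cells. Acot1 lies at -1.95 and -1.87 in the GW0742 panels and at 0.03 and 0.25 in the DMSO panels.

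Ordered by level, Acot1 was highest in wild-type mock GW0742 cells, then in wild-type Hras GW0742 cells, where the lowest array of the first and the highest of the second both read 9.59. Both groups stood clear of the 6 below, whose neighbours all overlapped. Acot4 was highest in wild-type Hras GW0742 cells, whose arrays stood above those of wild-type mock GW0742 cells. For Acot2 the highest groups were wild-type Hras GW0742 and null Hras DMSO, which overlapped each other. Acot9 was highest in both null Hras groups, which overlapped and stood above wild-type Hras GW0742 cells. Acot7 was lowest in wild-type mock DMSO cells, below every other group. All neighbours in the order overlapped for Acot3, Acot8 and Acot13.

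Across the 24 arrays, which share the 8 groups and so the group differences above, Acot4 correlated with Acot2 (Pearson r = 0.79), Acot1 (0.73) and Acot3 (0.73), while Acot1 and Acot2 correlated at 0.41. Acot7 and Them5 correlated at -0.96. Genes whose symbols have the form of predicted or unnamed transcripts were left out of the ranking that follows. The remaining genes most like Acot1 were Eci2 (0.980) and Hadhb (0.961), enzymes of fatty acid oxidation. Next came Pdk4 (0.959), a kinase that inhibits pyruvate dehydrogenase, Abca1 (0.945), a cholesterol exporter, and Gldc (0.944), a subunit of the glycine cleavage system. For Acot2 the most alike were Phgdh (0.947), of serine synthesis, and Rdh11 (0.936), a retinol dehydrogenase. For Acot4 they were Plin2 (0.915), a lipid droplet protein, and Tmem125 (0.907). Those most like Acot7 were Cdk18 (0.987) and Ttc7b (0.985), and those most like Them5 were Tent5a (0.996) and Krt10 (0.993), a keratin of differentiating epidermis. Acot9 was most like Derl1 (0.965) and Atp6v0b (0.957), Acot8 like Cops6 (0.862) and Fkbp15 (0.854), Acot3 like Cobll1 (0.792) and Nr1d1 (0.772), and Acot13 like Mycbp (0.731) and Mpi (0.717). These correlations are descriptions.

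Lists of genes that make, bind or burn acyl-CoA were set beside the members. Of 9 other acyl-CoA thioesterases, 2 rose with GW0742 in wild-type Hras cells (Acot5 and Acot6) and 0 in wild-type mock cells. Of 19 measured genes of mitochondrial beta-oxidation, 13 rose and 0 fell in wild-type Hras cells (median log2 change 0.67), and 14 rose and 0 fell in wild-type mock cells (0.60). Cpt1a, which admits long-chain acyl groups to mitochondria, rose by 1.42 and 1.30 there, and Hadhb, of the trifunctional protein, by 1.30 and 1.23. In null mock cells none of the 19 passed, and in null Hras cells 1 rose and 1 fell.

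In wild-type cells fewer genes of the other lists passed than of mitochondrial beta-oxidation. Among all genes, 4.46% were called higher in wild-type Hras cells and 1.25% in wild-type mock cells. In null Hras cells 3.51% of all genes were called higher and 1.51% lower. Of 17 measured acyl-CoA synthetases, 3 rose in wild-type Hras cells and 1 in wild-type mock cells, while 2 rose and 1 fell in null Hras cells. Slc27a4, a fatty acid transport protein with synthetase activity, changed by 0.42 in null Hras cells and 0.63 in wild-type Hras cells. Acsbg1, a very long-chain synthetase, rose by 1.09 in wild-type Hras cells and 1.66 in wild-type mock cells on the log2 scale. Of 17 measured genes of peroxisomal beta-oxidation, 3 rose in wild-type Hras cells and 1 in wild-type mock cells, and Abcd3, a transporter of the peroxisomal membrane, rose in both (0.41 and 0.36). Vnn1, a pantetheinase, was the 1 of 16 genes of coenzyme A synthesis and breakdown that rose (0.92 in wild-type Hras cells and 0.56 in wild-type mock cells). Dbi, the acyl-CoA binding protein, was the 1 of 7 binding proteins that rose (0.22 and 0.18). No gene of any of these lists fell with GW0742 in wild-type cells. In null Hras cells 1 gene of peroxisomal beta-oxidation and 1 of coenzyme A metabolism fell and none rose, and in null mock cells no gene of these lists passed. The calls in null Hras cells were all lost in a model of only the arrays compared, where 0 of 19937 genes passed.

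Markers of cell types other than keratinocytes moved little with GW0742 in wild-type cells. Of the fibroblast (7), melanocyte (6), leukocyte and Langerhans cell (7), adipocyte (4 measured) and endothelial (4) markers, none passed in wild-type mock cells, and Pdgfra (0.30) and H2-Ab1 (0.85) rose in wild-type Hras cells. In null mock cells none of them passed. In null Hras cells, on which the genotype differences of the GW0742 effect also rest, 5 of 6 melanocyte markers rose with GW0742 (median log2 change 0.31, array means 9.64 to 9.90 with GW0742, against 9.34 to 9.42 with DMSO) and H2-Ab1 rose by 1.10. In a model of only the arrays compared, 0 of 19937 genes passed for GW0742 in null Hras cells, so these markers did not pass there. The direct null minus wild-type difference of the GW0742 effect in Hras cells passed for 1 of the 6 melanocyte markers and for none of the other markers. With Hras more of them moved. In wild-type DMSO cells all 7 fibroblast markers fell, with array means of 7.63 to 7.74 with Hras, against 8.88 to 8.94 in mock cells, and all 6 melanocyte markers fell, with 9.33 to 9.47 against 10.35 to 10.46. In null DMSO cells 1 fibroblast marker rose and 4 fell, with array means of 7.85 to 8.05 with Hras, against 8.30 to 8.34 in mock cells. The null minus wild-type difference of the Hras effect was higher for 6 of the 7 fibroblast markers (median 0.94) and 3 of the 6 melanocyte markers (median 0.26). It was also higher for 1 endothelial marker, and lower for 1 leukocyte and Langerhans cell marker. Among the members it passed above 0 for Acot2 and Acot9 and below 0 for Acot7. The part of these cells in these results was not tested. The 4 adipocyte markers passed in no comparison, with array means of 6.19 to 6.69.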

How the data were processed

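Log2 expression values of total RNA from the 24 Affymetrix Mouse Gene 1.0 ST arrays were deposited by the authors as 1 table, made with RMA per the submitters' processing notes. The sources used here give neither the software behind RMA nor the genome build. RMA makes the arrays' distributions nearly equal and would hide a shift common to most genes. The deposited log2 values lay between 2.27 and 14.8, and no further normalization was applied.

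By the platform annotation, 21640 of 34760 probe sets named 1 gene, 1321 named several and 11799 named none. Those naming 1 gene were used, and the one with the highest mean stood for each of the 954 genes with several, which left 19937 genes and no filter on dim ones. Each of the 9 members had exactly 1 such probe set. With limma 3.58.1 (R 4.3.3), each gene was given a mean per group (16 residual and 4.43 prior degrees of freedom), giving 12 pairwise comparisons and 4 differences of effects. Tests are two-sided, and Benjamini-Hochberg adjustment ran over all genes. Nothing in the labels says that a replicate number marks a shared culture or day. Correlations of deviations between arrays of the same number exceeded 0.1 in 8 of 36 pairs, and in all 3 pairs only for null against wild type in mock DMSO cells (0.118 to 0.144), where the blocked value is given if it changes a call. Elsewhere the numbers were not treated as pairs. No 2 arrays of a group were identical.

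The genes named were the members, Ppard, the 5 genes most correlated with Acot1 and 2 for each other member, and up to 4 passing genes with the largest change of each gene list in the GW0742 comparisons of wild-type cells. For the correlations, genes with symbols in the form of predicted or unnamed transcripts were skipped, which also left out some named genes such as H2-Ab1. Further values of Acot5 and Acot6 were added as cluster neighbours. The members and lists were chosen with earlier results of these data known. Promoter windows come from RefSeq, build GRCm38.p6. Expression of Hras itself is not analysed here.

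On simulated data for GW0742 in wild-type mock cells (19937 genes), 94% of 100 genes given a 1.5-fold change were found, and 100% of 100 given a 2-fold change. There were 203 calls, 9 of them false. Alternatives were array median centring, the dimmest 40% of genes left out, trend and robust moderation, only the arrays compared, the model without null Hras GW0742 cells, every probe set kept, a replicate block, and each array left out in turn. Tables and plots were made in Python 3.11.15 (pandas 2.3.3, matplotlib 3.10.9).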

Additional observations from a re-analysis of the deposited data

Results flagged for a closer look

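For 8 results the same contrast gave different effects in null and wild-type cells by limma's test of the difference itself. The GW0742 effect in Hras cells, null minus wild type, was -1.98 for Acot1, -1.14 for Acot2 and -0.96 for Acot4 on the log2 scale. In mock cells it was -2.12 for Acot1 and -0.66 for Acot2. As given above, the Acot4 difference did not pass in a model of only the arrays concerned. The Acot2 difference in mock cells was lost in most fits that left out a single array. The Hras effect in DMSO cells, null minus wild type, was 1.23 for Acot2, -0.70 for Acot7 and 0.42 for Acot9. With 3 arrays per group no single array was tested as standing apart.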

How the results depend on the processing

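Counts are of members called out of 9. Leaving out 1 array at a time gave 2 to 4 for GW0742 in wild-type mock cells (4 with all arrays), 2 to 4 for Hras in wild-type DMSO cells (3), 1 to 2 for null against wild type in mock DMSO cells (2), and 1 to 2 for the null minus wild-type difference of the GW0742 effect in mock cells (2). The same refits gave 4 in all 6 fits for null against wild type in mock GW0742 cells (5). For Hras in wild-type GW0742 cells they gave 5 to 8 (6), where 6248 to 6545 of all 19937 genes were called. With the dimmest 40% of genes left out, Hras changed 5 members in wild-type DMSO cells, of 7 measured, beside 6983 of all 11963 genes kept. With only the arrays compared, 4 members differed between null and wild-type mock DMSO cells, and 4 in the GW0742 effect between null and wild-type mock cells. Of all 19937 genes, that fit called 1998 and 291 in these comparisons. That fit called 0 genes of all for GW0742 in null Hras cells, against 1001 in the model of all arrays, 775 against 1219 for GW0742 in wild-type Hras cells, 1686 against 4201 between genotypes in Hras GW0742 cells, and 103 against 344 for the genotype difference of the GW0742 effect in Hras cells. That difference in mock cells had 291 genes with only the arrays compared and 260 with trend and robust moderation, against 169. In null mock cells median centring called 1 gene, against 0. Over all genes, leaving out 1 array at a time gave 393 to 2539 calls for GW0742 in null Hras cells (1001), 288 to 401 for GW0742 in wild-type mock cells (570), 240 to 651 for the genotype difference of the GW0742 effect in Hras cells (344) and 286 to 482 for its Hras minus mock difference in wild-type cells (492). The 2539 and 651 calls both came without replicate 1 of null Hras GW0742 cells. That fit also gave 6225 calls between genotypes in Hras GW0742 cells (4201). Without replicate 2 or 3 of that group each of these counts was lower than with all arrays. The causes were not tested. Of 2020 values for single members, 1944 kept their side of the threshold, 40 lost it, 36 gained it and 0 called values reversed. With the replicate block, 3 members passed for the genotype difference of the GW0742 effect in mock cells (2 without), 3 for null against wild type in mock DMSO cells (2), 6 for Hras in null DMSO cells (7), and the counts for GW0742 in wild-type cells stayed at 3 with Hras and 4 in mock cells; 11 of 24 arrays correlated best with their own number. Other probe sets of the members could not be tried, since each had 1.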
